A study of Mus musculus with 8 samples.

Results

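The circadian clock genes described here are the 10 genes Bmal1, Clock, Per1, Per2, Per3, Cry1, Cry2, Nr1d1, Nr1d2 and Dbp. They were chosen by symbol, with earlier results of these data known. All 10 were found among the 55359 genes of the deposited table by matching Ensembl identifiers to GENCODE mouse release 39, and all 10 reached the mean of 10 normalized counts that was asked of a gene before testing, as did 16309 genes in all. Total RNA-seq was performed in bone marrow-derived macrophages (BMDMs) from C57BL/6 mice (adults, both sexes), differentiated in all groups with M-CSF and GM-CSF, each at 20 ng/mL. The naïve unstimulated group (Ctrl), the naïve group stimulated for 6 h with LPS (100 ng/mL) plus IFNγ (100 U/mL) (LPS), the efferocytic unstimulated group (Eff) and the efferocytic group given the same stimulus (LPSEff) held 2 samples each. Efferocytic Mϕ had been kept for 16 h with apoptotic NIH-3T3 CA cells, a mouse fibroblast line made to die with a caspase dimerizer (10 nM), at 5 fibroblasts per Mϕ, and were washed before stimulation. The dimerizer (10 nM) stayed present during the co-culture, so that the Mϕ of Eff and LPSEff met it as well. No dimerizer is described for Ctrl and LPS, so that efferocytic and naïve groups may also have differed in the dimerizer. CD45-bearing cells were then collected on magnetic beads in every group. Neither the hour of the day at harvest nor a step that synchronizes the clocks of cultured cells is given in the sources used here, and each group stands for a single time point, so that a level below is no measure of a rhythm.

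In mammalian cells the clock is a feedback loop of transcription. BMAL1 and CLOCK bind E-box sequences together and switch on the Period and Cryptochrome genes, whose proteins return to the nucleus and block them. BMAL1 and CLOCK also switch on Nr1d1 and Nr1d2, which encode the heme-binding nuclear receptors REV-ERBα and REV-ERBβ, repressors of Bmal1, and Dbp, which encodes a PAR bZIP activator that acts through D-box sequences. Mϕ hold such a loop, and REV-ERBα is known there as a repressor of inflammatory genes.

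Short sequences that such factors bind were sought on both strands in the 250 bases before the annotated start of each member's canonical transcript. These windows were read from the GRCm39 genome, the build of the files, and binding was not measured. The E-box CACGTG was present in 2 of the 10 members (Per1 and Cry1) and in 6.26% of 21757 promoters of protein-coding genes. The E′-box CACGTT was present in 3 (Cry1, Cry2 and Nr1d1, with 4.16% of all). The D-box, searched as TTATGTAA or TTATGCAA, was present in Per2 and in 2 copies in Per3 (1.53% of all). The REV-ERB/ROR half-site, searched as TAGGTCA or TGGGTCA, was present in 2 copies in Dbp (5.26% of all). No match overlapped another. The windows of 3 members are printed 5′ to 3′ on the gene's own strand, with each match in capitals: Per1, the member with the largest estimate under stimulation, and Nr1d1 and Nr1d2, the members above LPS in both LPSEff samples. The E-box of Per1 began 22 bases before the start and that of Cry1 29 bases before it, and the E′-boxes of Cry1 and Nr1d1 read as AACGTG on this strand and began 48 and 72 bases before the start. The windows of Bmal1, Clock and Nr1d2 held none of these matches, which says nothing of the factors themselves or of sites outside the windows.
Per1, chr11:68989018-68989267, plus strand: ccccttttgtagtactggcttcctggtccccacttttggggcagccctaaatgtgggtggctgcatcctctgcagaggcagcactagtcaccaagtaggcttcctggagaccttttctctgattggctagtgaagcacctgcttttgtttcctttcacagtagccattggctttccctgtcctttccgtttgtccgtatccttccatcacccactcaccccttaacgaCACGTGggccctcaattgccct
Nr1d1, chr11:98666160-98666409, minus strand: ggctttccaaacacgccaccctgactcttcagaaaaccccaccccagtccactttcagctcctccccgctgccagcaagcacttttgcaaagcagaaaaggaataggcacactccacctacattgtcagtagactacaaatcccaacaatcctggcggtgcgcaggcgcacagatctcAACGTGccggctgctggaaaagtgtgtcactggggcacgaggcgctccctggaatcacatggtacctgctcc
Nr1d2, chr14:4230295-4230544, plus strand: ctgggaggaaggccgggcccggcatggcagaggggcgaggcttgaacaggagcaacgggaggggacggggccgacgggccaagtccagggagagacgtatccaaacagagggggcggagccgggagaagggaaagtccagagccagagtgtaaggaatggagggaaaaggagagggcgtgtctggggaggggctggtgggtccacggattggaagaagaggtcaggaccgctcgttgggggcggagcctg

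The libraries held between 3481288 and 12020918 reads on genes, with Ctrl 1 the shallowest, so that 3 reads correspond to 1.73 to 5.71 normalized counts; such floors and the counting intervals below cover counting error only. Mϕ identity was checked with 8 markers (Ptprc, Adgre1, Csf1r, Cd68, Itgam, Mertk, Lyz2 and Fcgr1), all of which were detected, with sums between 87540 and 141200 normalized counts. The 6 genes used to check the stimulus, among them Nos2 and Il6, were all called higher in LPS than in Ctrl and in LPSEff than in Eff. The 14 fibroblast markers summed to 1162 and 1213 normalized counts in Ctrl, to 2288 and 1830 in LPS, to 5013 and 7932 in Eff and to 12710 and 10310 in LPSEff. Of the 12 that could be tested, 7 were called higher in Eff than in Ctrl and 8 in LPSEff than in LPS. Dcn, a defining marker of the list, was at 0 to 5.08 normalized counts in the naïve and at 21.9 to 198 in the efferocytic samples. Thy1 (−0.28) in Eff against Ctrl, and Thy1 (−0.44) and Pdgfrb (−1.10) in LPSEff against LPS, had negative log2 differences with no call, and Lum stayed at 0 to 3.81 normalized counts in all samples. In RNA of whole samples fewer cells of a type and less RNA per cell cannot be told apart. The 6 lymphocyte markers summed to 5.21 to 15.5 normalized counts. Neutrophil markers summed to 614 to 2028, and dendritic cell markers, among them Ccr7, to 1368 to 2925 without stimulation and to 6887 to 17200 with it.

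Relative to exon length, the clock genes of Ctrl Mϕ ranged from 33.7 normalized counts per kilobase for Cry1 to 3.93 for Per3, group means of 2 samples. Cry1 was followed by Clock (29.3) and Per1 (19.3), and the samples of these 3 genes did not overlap with each other or with those of the remaining members. The other 7 genes, Dbp (7.28), Cry2 (6.86), Per2 (5.86), Nr1d2 (5.21), Nr1d1 (4.73), Bmal1 (4.06) and Per3, formed a low set in which the samples of every pair of neighbours overlapped. In LPSEff the order on the same scale was led by Per1 (42.3), Cry1 (34.1) and Clock (20.4), and Nr1d1 came next at 12.5, with the samples of Per1 overlapping those of Cry1 and the samples of Nr1d1 those of Nr1d2 (9.10).

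The effect of LPS/IFNγ on the clock was addressed in naïve Mϕ by LPS against Ctrl and in efferocytic Mϕ by LPSEff against Eff. Genes were called where limma gave a p under 0.05 after Benjamini-Hochberg adjustment over all genes tested. None of the 10 clock genes was called in either comparison, whereas 24.0% of the 16309 genes tested were called in LPS against Ctrl and 19.7% in LPSEff against Eff. At an unadjusted p under 0.05 the number of members was also 0 in both comparisons, beside 5795 and 5315 of the 16309 genes. With edgeR and with DESeq2 on the reads recovered from the values, 0 members were called in either as well. With the sample number as a block, Per1 and Clock were called in both and Cry1 in LPS against Ctrl, beside 6717 and 6033 of all genes. The labels tie no samples by number, so that these calls of the block were not used. The median log2 difference of the members was −0.37 in naïve and −0.07 in efferocytic Mϕ, beside −0.01 and 0.01 over all genes tested. The samples of both groups did not overlap for 6 members in LPS against Ctrl (2 higher, 4 lower) and for 4 in LPSEff against Eff (1 higher, 3 lower), which is read against 59.3% and 59.9% of all genes tested. With samples rescaled to equal totals the median log2 difference of all genes moved to −0.40 and −0.44, the share of higher calls among all calls went from 51.5% to 24.8% and from 54.6% to 21.8%, and Clock was called lower in both comparisons (−0.91 and −0.92, limma adjusted p = 0.013 each).

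**Figure D1:**
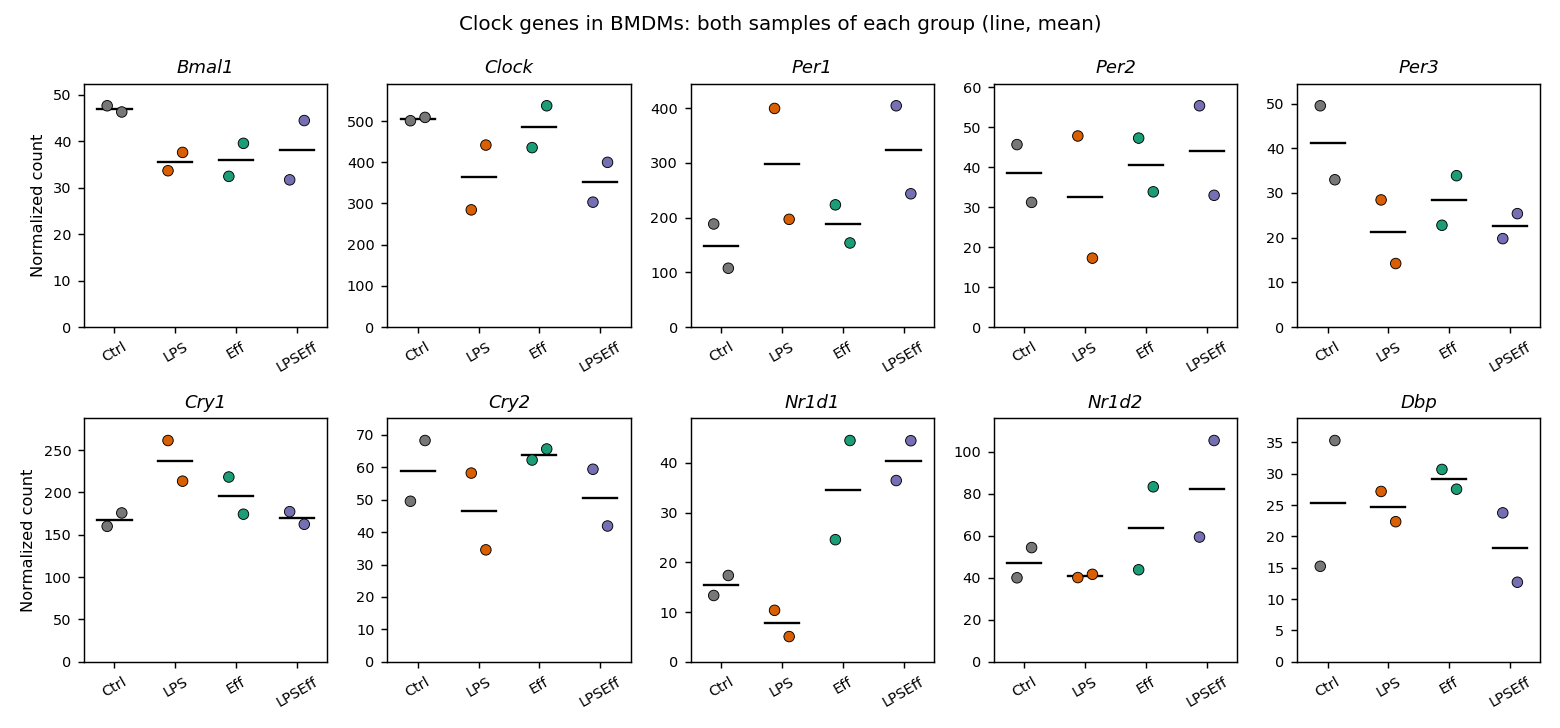
Normalized counts of the 10 clock genes in Ctrl, LPS, Eff and LPSEff; points are the 2 samples of a group (sample 1 left, sample 2 right) and lines their mean, on axes that start at 0. Nr1d1 lies between 24.5 and 44.5 in the 4 efferocytic samples and between 5.08 and 17.3 in the 4 naïve samples, a separation that none of the other 9 members shows.

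Of the activators, Clock (chr5:76342860-76452846, GRCm39) was the more abundant per kilobase. Its normalized counts were 501 and 509 in Ctrl, 285 and 442 in LPS, with 436 and 537 in Eff and 303 and 400 in LPSEff. Both stimulated groups lay below their unstimulated counterparts without overlap, although LPS 2 came above Eff 1. The log2 difference was −0.51 (SE 0.26, limma adjusted p = 0.20) in naïve and −0.47 (SE 0.26, limma adjusted p = 0.25) in efferocytic Mϕ. Bmal1 (chr7:112806152-112914735), the partner of Clock, gave 47.6 and 46.3 normalized counts in Ctrl, 33.6 and 37.6 in LPS, with 32.4 and 39.5 in Eff and 31.7 and 44.4 in LPSEff. Only Ctrl stood apart for Bmal1, with all 6 other samples below both of its values. The log2 difference of Bmal1 was −0.39 (SE 0.32, limma adjusted p = 0.43) for LPS against Ctrl and −0.38 (SE 0.32, limma adjusted p = 1.0) for Eff against Ctrl, comparisons that share the Ctrl samples.

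Among the Period genes, whose proteins block BMAL1 and CLOCK, Per1 had the largest estimate under stimulation. Per1 (chr11:68986035-69002300) reached 189 and 108 normalized counts in Ctrl, 400 and 197 in LPS, with 224 and 154 in Eff and 405 and 244 in LPSEff. Each stimulated group lay above its unstimulated counterpart, by 1.96-fold in naïve and 1.69-fold in efferocytic Mϕ, and sample 1 exceeded sample 2 in every group, by 1.45 to 2.03 times. The log2 difference was 0.97 (95% interval −0.01 to 1.96, limma adjusted p = 0.14) in naïve and 0.76 (95% interval −0.23 to 1.74, limma adjusted p = 0.27) in efferocytic Mϕ. Per2 (chr1:91343700-91387069) gave 45.7 and 31.2 normalized counts in Ctrl, 47.9 and 17.3 in LPS, with 47.3 and 33.9 in Eff and 55.4 and 33.0 in LPSEff. The groups of Per2 overlapped in all 4 comparisons, and the log2 differences ran from −0.38 to 0.55. Per3 (chr4:151081373-151129140) had 49.5 and 33.0 normalized counts in Ctrl, 28.5 and 14.2 in LPS, with 22.8 and 33.9 in Eff and 19.8 and 25.4 in LPSEff. Both LPS samples lay below both Ctrl samples (log2 difference −0.97, SE 0.45, limma adjusted p = 0.17), and the groups overlapped between Eff and LPSEff.

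The Cryptochromes, which complete the repressor complex, were called in no comparison. Cry1 (chr10:84967560-85021252) had 160 and 176 normalized counts in Ctrl, 261 and 213 in LPS, with 218 and 174 in Eff and 177 and 162 in LPSEff. It was above Ctrl in both LPS samples (log2 difference 0.49, SE 0.22, limma adjusted p = 0.15), and its efferocytic groups overlapped (−0.20, SE 0.22, limma adjusted p = 0.59). The LPS/IFNγ effect on Cry1 in efferocytic less that in naïve Mϕ was −0.69 on the log2 scale (95% interval −1.39 to 0.01), with an unadjusted p of 0.053 and an adjusted p of 1.0 in limma. Cry2 (chr2:92233894-92264474) gave 49.5 and 68.2 normalized counts in Ctrl, 58.2 and 34.5 in LPS, with 62.2 and 65.6 in Eff and 59.4 and 41.9 in LPSEff. Its log2 differences under stimulation were −0.37 and −0.35 (SE 0.35 each). The groups overlapped in naïve Mϕ, and both LPSEff samples lay below both Eff samples. Dbp (chr7:45354512-45359627), an output gene of the clock, had its samples furthest apart in Ctrl, with 15.2 and 35.3 normalized counts there, 27.2 and 22.3 in LPS, with 30.7 and 27.5 in Eff and 23.8 and 12.7 in LPSEff. The log2 difference of Dbp was 0.08 (SE 0.50) in naïve and −0.71 (SE 0.50, limma adjusted p = 0.38) in efferocytic Mϕ, and the sign of the first turned with edgeR (−0.06) and with DESeq2 (−0.04).

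The interaction, which asks whether prior efferocytosis altered the LPS/IFNγ effect, was called for no member and for 0% of all genes tested by limma. At an unadjusted p under 0.05 it passed for 0 members and 311 genes in all, and edgeR and DESeq2 also called no gene, with 369 and 244 genes at an unadjusted p under 0.05.

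The efferocytosis comparisons were Eff against Ctrl without and LPSEff against LPS with stimulation. Again 0 of the 10 clock genes were called by limma, beside 0.251% of all genes in Eff against Ctrl and 0.773% in LPSEff against LPS. At an unadjusted p under 0.05 there were 0 members in the first and 2 in the second, Nr1d1 and Nr1d2. Over all 16309 genes tested these numbers were 1000 and 1679. Groups did not overlap for 2 members in Eff against Ctrl (Nr1d1 higher, Bmal1 lower), beside 34.1% of all genes, and for 3 in LPSEff against LPS (Nr1d1 and Nr1d2 higher, Cry1 lower), beside 36.3%.

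Nr1d1 (chr11:98658752-98666188), which encodes REV-ERBα, had the largest difference of the clock genes. It was found at 13.3 and 17.3 normalized counts in Ctrl, 10.3 and 5.08 in LPS, with 24.5 and 44.5 in Eff and 36.4 and 44.4 in LPSEff. All 4 efferocytic samples were above all 4 naïve samples, which held for no other member and for 4.41% of all genes tested in either direction. LPSEff against LPS gave a log2 difference of 2.31, which is 4.96-fold (95% interval of the log2 difference 1.20 to 3.42, unadjusted p = 0.0013, limma adjusted p = 0.10). Eff against Ctrl gave 1.07 (95% interval −0.04 to 2.18, limma adjusted p = 0.84), and LPS against Ctrl gave −0.97 (limma adjusted p = 0.20), a comparison that shares its LPS samples with LPSEff against LPS. The difference between both efferocytosis effects, 1.24, had a 95% interval from −0.33 to 2.81. The tools placed the difference between LPSEff and LPS on either side of the threshold, with an adjusted p of 0.12 in edgeR and of 0.045 in DESeq2, and leaving out a sample gave log2 differences from 1.86 to 2.76 with limma adjusted p from 0.092 to 0.44.

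Few reads stood behind Nr1d1. There were 7 and 30 reads in Ctrl, 8 and 5 in LPS, with 28 and 63 in Eff and 46 and 35 in LPSEff. In normalized counts the exact 95% Poisson intervals of the LPS samples were 4.47 to 20.4 and 1.65 to 11.9. Those of the LPSEff samples were 26.7 to 48.6 and 30.9 to 61.8. Such intervals cover counting error only and leave out the spread between samples. In the gene models, 1694 of the 3242 exon bases of Nr1d1 (52.3%) lay opposite exons of Thra, the thyroid hormone receptor gene on the other strand. Thra gave 211 and 73.5 normalized counts in Ctrl, 147 and 73.1 in LPS, with 129 and 118 in Eff and 167 and 136 in LPSEff, with no call in any comparison (limma adjusted p = 0.81 for LPSEff against LPS). The authors counted with the default setting of htseq-count, which reads strand. Whether reads of Thra entered the Nr1d1 counts was not tested. The fibroblast marker sums were higher with Nr1d1 in the efferocytic samples. They were 1162 to 2288 normalized counts in the naïve and 5013 to 12710 in the efferocytic samples. Ctrl and LPS were both kept without apoptotic fibroblasts. Their mean sums were 1187 in Ctrl and 2059 in LPS, so that the sum is no measure of fibroblast RNA alone. Among the neutrophil markers tested, S100a8 was also higher in efferocytic Mϕ (mean log2 effect 1.01, limma adjusted p = 0.0067). S100a9 (−0.15), Mpo (−0.62) and Camp (0.23) were not called for this effect. The part of these markers in the difference was not tested.

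Nr1d2 (chr14:4230545-4266624), which encodes REV-ERBβ, had 40.0 and 54.4 normalized counts in Ctrl, 40.1 and 41.6 in LPS, with 43.8 and 83.3 in Eff and 59.4 and 105 in LPSEff. It was above LPS in both LPSEff samples, whereas the Eff and Ctrl samples overlapped. The log2 difference was 0.94 (95% interval 0.0016 to 1.87, unadjusted p = 0.050, limma adjusted p = 0.48) with and 0.37 (SE 0.41, limma adjusted p = 1.0) without stimulation. Both LPSEff samples of Cry1 lay below both LPS samples (log2 difference −0.47, SE 0.22, limma adjusted p = 0.52). For Bmal1, Clock, Per1, Per2, Per3, Cry2 and Dbp the log2 difference between LPSEff and LPS lay between −0.48 and 0.55, and all 7 overlapped between both groups.

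**Figure D2:**
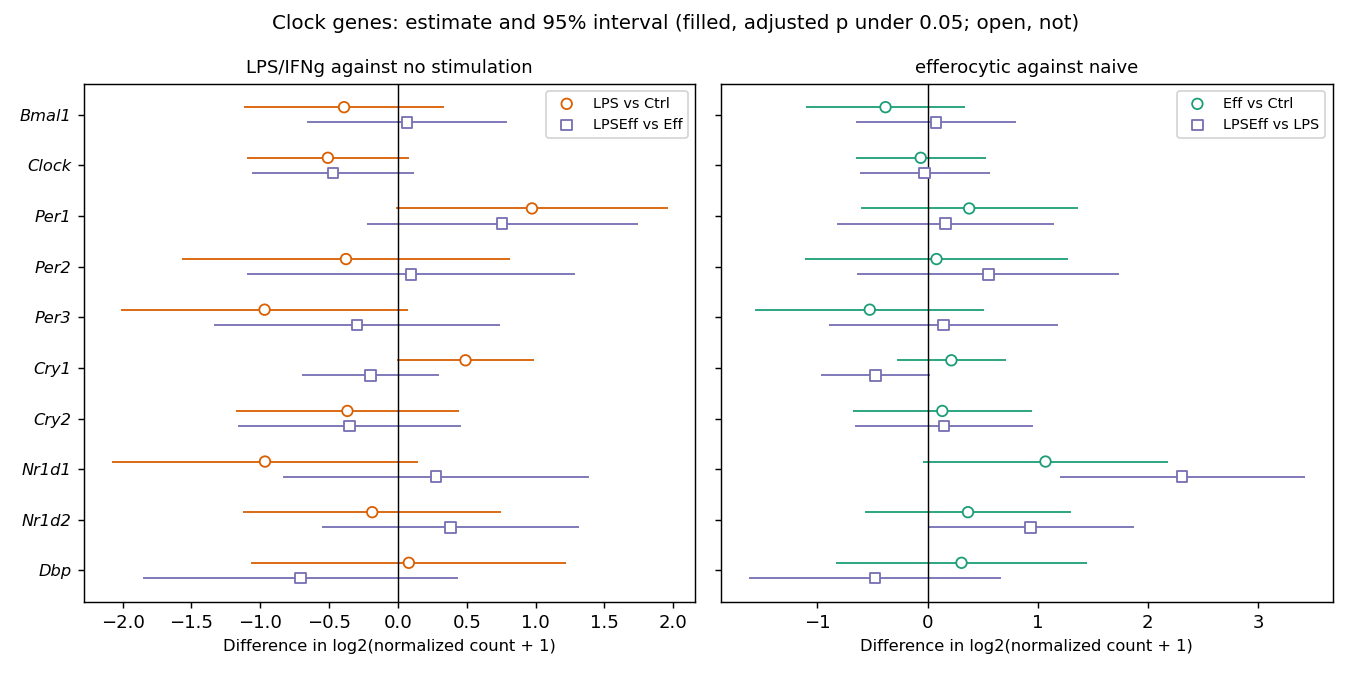
Differences in log2(normalized count + 1) of the 10 clock genes with 95% intervals from limma: left, LPS against Ctrl (circles) and LPSEff against Eff (squares); right, Eff against Ctrl (circles) and LPSEff against LPS (squares). All symbols are open, for an adjusted p of 0.05 or more, and the intervals of Nr1d1 (1.20 to 3.42) and Nr1d2 in LPSEff against LPS lie above 0.

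As 2 samples a group leave wide intervals, the effects of each factor were also averaged over both levels of the other, a contrast added after the values had been seen. For LPS/IFNγ, 0 of the 10 members were called by limma, beside 36.5% of all genes. At an unadjusted p under 0.05, which 7434 of the 16309 genes reached, there were 2 members. These were Per1, with a mean log2 effect of 0.87 (SE 0.30, limma adjusted p = 0.056), and Clock, with −0.49 (SE 0.18, limma adjusted p = 0.067). No member separated the 4 stimulated from the 4 unstimulated samples, which 36.0% of all genes did. DESeq2 called Per1 (0.94, adjusted p = 0.013). For efferocytosis, 0 members were called by limma, beside 1.92% of all genes. Nr1d1 came closest, with a mean log2 effect of 1.69 (SE 0.34, 95% interval 0.91 to 2.48, limma adjusted p = 0.053). The adjusted p of this effect was 0.056 with edgeR, 0.013 with DESeq2, 0.046 with a pseudocount of 5 and 0.043 without the filter on low values. Leaving out a sample gave limma adjusted p from 0.037 to 0.21. Nr1d2 had a mean efferocytosis effect of 0.65 (SE 0.29, limma adjusted p = 0.38).

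Samples with the same number differed in like ways for some clock genes. Per1 and Per2 were higher in sample 1 than in sample 2 in all 4 groups, by 1.45 to 2.03 times for Per1 and by 1.40 to 2.77 times for Per2. Clock and Nr1d2 were lower in sample 1 in all 4 groups, with ratios of 0.64 to 0.98 and of 0.53 to 0.96. The remaining 6 members had no such common order. Over all genes tested, 14.7% were higher in sample 1 in every group and 29.1% were lower, so that the 2 and 2 members are near the background. The labels do not say whether samples of a number shared a preparation.

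**Figure D3:**
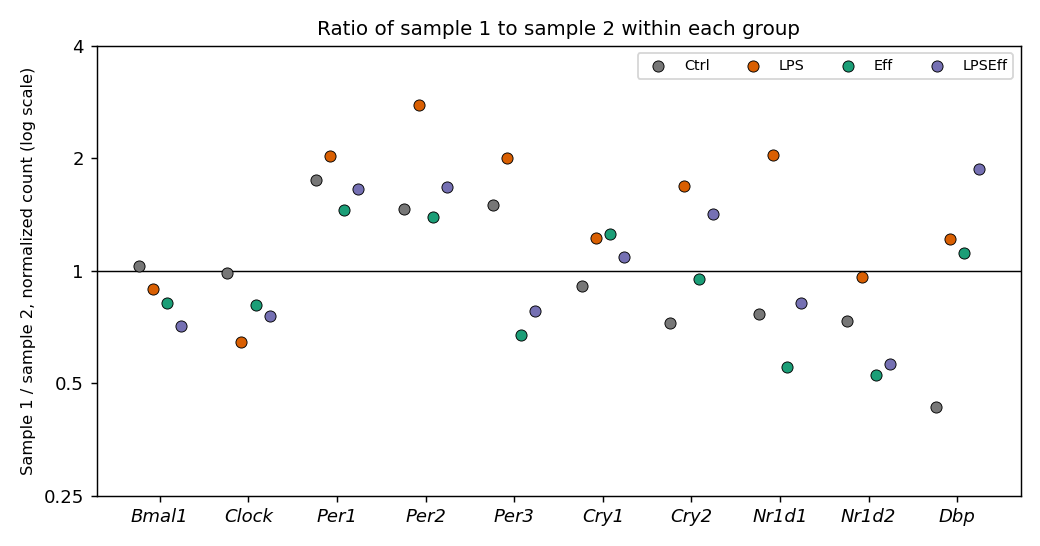
Ratio of the normalized count in sample 1 to that in sample 2 (log axis) for each clock gene in Ctrl, LPS, Eff and LPSEff; the line marks equal values. All 4 points of Per1 (1.45 to 2.03) and Per2 (1.40 to 2.77) lie above the line and all 4 of Clock and Nr1d2 below it.

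The wider clock was described with 20 further genes in 7 role lists, written with earlier results of these data known. Of these, 15 reached the minimum for testing, and Npas2, Bmal2, Rorb, Ciart and Fbxl21 did not, with means of 3.11 to 9.96 normalized counts. In LPS against Ctrl 7 of the 15 were called by limma (4 higher, 3 lower, beside the 24.0% of all genes), and in LPSEff against Eff 6 were called (4 higher, 2 lower, beside 19.7%). The median log2 difference of the 15 was 0.09 and 0.12, beside −0.01 and 0.01 over all genes. None of the 15 was called by limma in Eff against Ctrl or in LPSEff against LPS, and edgeR and DESeq2 called none either. In these comparisons 0 and 2 (Tef and Bhlhe41) had an unadjusted p under 0.05, beside 1000 and 1679 of the 16309 genes. Of the dendritic cell markers tested, 2 of 5 were called higher in LPS against Ctrl and 1 in LPSEff against Eff. The same counts were 2 and 1 of 4 neutrophil, 2 and 1 of 12 fibroblast and 2 and 3 of 8 Mϕ markers. All these counts are read against the 24.0% and 19.7% of all genes, which the fibroblast markers did not reach. The fibroblast markers called in LPS against Ctrl were Col5a1 and Pdgfrb, in groups kept without apoptotic fibroblasts. The part of all these markers in the differences below was not tested.

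Among the factors that act on D-boxes, Nfil3, which encodes a repressor that opposes the PAR bZIP activators, rose under stimulation. It had 236 and 256 normalized counts in Ctrl, 1063 and 789 in LPS, with 285 and 288 in Eff and 1273 and 685 in LPSEff. The log2 difference was 1.89 (SE 0.29, limma adjusted p = 0.0029) in naïve and 1.70 (SE 0.29, limma adjusted p = 0.0054) in efferocytic Mϕ. Tef, a PAR bZIP activator related to Dbp, fell in naïve Mϕ, with 213 and 227 normalized counts in Ctrl, 84.1 and 81.2 in LPS, with 160 and 264 in Eff and 121 and 142 in LPSEff. Its log2 difference was −1.40 (SE 0.27, limma adjusted p = 0.0074) in naïve and −0.64 (SE 0.27, limma adjusted p = 0.14) in efferocytic Mϕ, and the difference between both effects, 0.76, did not pass (limma adjusted p = 1.0). Hlf, the other PAR bZIP gene, was not called, and its 0.99 and 0.47 had an SE of 0.76.

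The E-box repressors Bhlhe40 and Bhlhe41, which compete with BMAL1 and CLOCK for E-boxes, went in opposite directions. Bhlhe40 rose, with 1565 and 1166 normalized counts in Ctrl, 2861 and 3006 in LPS, with 1104 and 996 in Eff and 2416 and 2390 in LPSEff. Its log2 differences were 1.12 (limma adjusted p = 0.0046) in naïve and 1.20 (limma adjusted p = 0.0039) in efferocytic Mϕ, both with an SE of 0.19. Bhlhe41 fell, with 760 and 829 normalized counts in Ctrl, 325 and 219 in LPS, with 733 and 1126 in Eff and 438 and 454 in LPSEff. Its log2 differences were −1.57 (limma adjusted p = 0.0041) and −1.02 (limma adjusted p = 0.028), both with an SE of 0.26. The second of these calls was lost without Eff 2, LPSEff 1 or LPSEff 2 (limma adjusted p = 0.17, 0.12 and 0.093).

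Of the clock-controlled outputs, Nampt, the rate-limiting enzyme of NAD salvage, rose by 2.34 (SE 0.32, limma adjusted p = 0.0016) in naïve and by 2.62 (SE 0.32, limma adjusted p = 0.0011) in efferocytic Mϕ. It went from 1424 and 1609 normalized counts in Ctrl to 6413 and 9225 in LPS, and from 1088 and 2047 in Eff to 8128 and 10360 in LPSEff. Wee1, a kinase that holds back mitotic entry, fell from 192 and 150 in Ctrl to 64.7 and 101 in LPS and from 203 and 177 in Eff to 55.4 and 78.7 in LPSEff. The log2 difference of Wee1 was −1.07 (SE 0.30, limma adjusted p = 0.035) in naïve and −1.51 (SE 0.30, limma adjusted p = 0.010) in efferocytic Mϕ. The first call was lost without Ctrl 1, Ctrl 2, LPS 1, Eff 1 or Eff 2 (limma adjusted p from 0.055 to 0.18), without the filter on low values (0.059) and with only the 2 groups compared (0.069), and the second without Eff 1 or LPSEff 1 (limma adjusted p = 0.070 and 0.071). Usp2, a ubiquitin protease, had log2 differences of −0.64 and −1.32 (SE 0.43 each) with no call in either comparison.

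Of the F-box subunits that direct clock proteins to degradation, Fbxw11 rose, with 547 and 493 normalized counts in Ctrl, 1049 and 1345 in LPS, with 563 and 405 in Eff and 830 and 939 in LPSEff. Its log2 difference was 1.19 (SE 0.22, limma adjusted p = 0.0065) in naïve and 0.89 (SE 0.22, limma adjusted p = 0.025) in efferocytic Mϕ. The second call was lost without Eff 2, LPSEff 1 or LPSEff 2 (limma adjusted p = 0.17, 0.080 and 0.12) and with samples rescaled to equal totals (0.14). Without LPSEff 1, the number of the 15 genes called in LPSEff against Eff was 3. The other F-box gene tested (Btrc), the 4 kinases (Csnk1d, Csnk1e, Csnk2a1 and Gsk3b) and the nuclear receptor gene Rora, an activator that competes with the REV-ERBs, were not called in either comparison.

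With both stimulation effects averaged, 9 of the 15 genes were called by limma (5 higher, 4 lower), beside 36.5% of all genes, and the 4 stimulated samples did not overlap with the 4 unstimulated ones for these same 9 genes, beside 36.0%. They were the 7 named above with Csnk1d (0.41, but −0.018 with equal totals) and Usp2 (−0.98, not called with DESeq2, adjusted p = 0.12), whose calls were each lost when one of several samples was left out and without the filter on low values (limma adjusted p = 0.12 and 0.078). No wider clock gene was called for the mean efferocytosis effect.

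**Figure D4:**
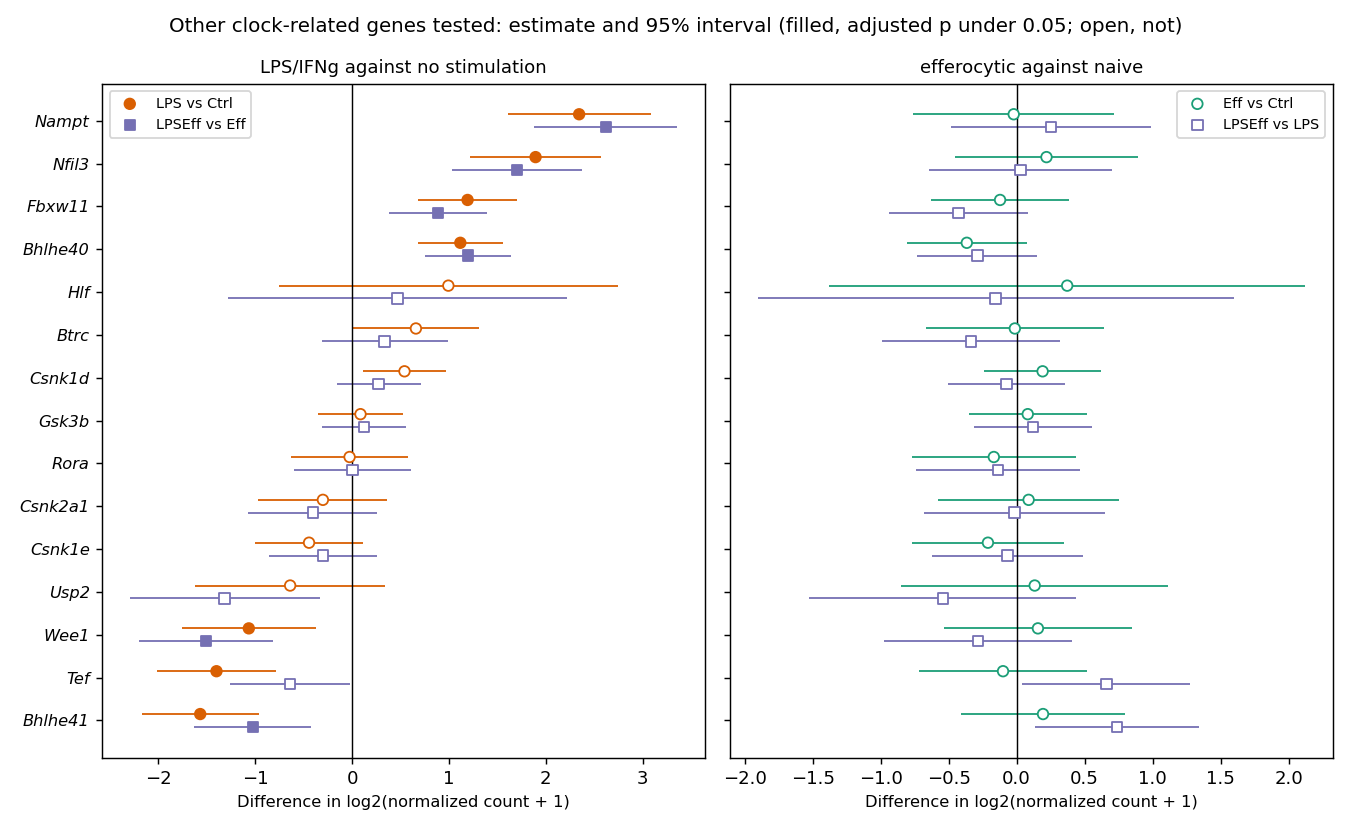
Differences in log2(normalized count + 1) of the 15 further clock genes tested, with 95% intervals from limma, laid out and coded as for the 10 clock genes; filled symbols mark an adjusted p under 0.05. Filled symbols stand only in the stimulation panel, 7 for LPS against Ctrl and 6 for LPSEff against Eff, with Nampt at the top (2.34 and 2.62) and Bhlhe41 at the bottom (−1.57 and −1.02).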

How the data were processed

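Total RNA was rRNA-depleted, and libraries of 8 samples (4 groups of 2) were sequenced by the authors, who used cutadapt for adapters, bowtie2 against rRNA, STAR for alignment to mm39 and htseq-count, with its defaults, for counts. As deposited, each gene has a signal value, a normalized count obtained by dividing its reads by a sample's size factor. The annotation release and tool versions are not given in the sources used here. Every value was a whole multiple (within 0.01) of the smallest nonzero value of its sample in 100% of cases, which gave the recovered reads. Of 55359 identifiers, 54749 were named with GENCODE release 39 (GRCm39).

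Differences were tested on log2(normalized count + 1) by limma with its trend option (limma 3.58.1 in R 4.3.3), for 16309 genes with a mean of at least 10, in a single model of 4 group means (4 residual degrees of freedom) and Benjamini-Hochberg adjustment over all of them. Fold changes are on this log2 scale, which understates changes of low genes. The labels do not say that samples came from separate cultures or animals, so that p-values measure only the spread between these samples, which may be technical. The steps were tested on simulated data. Alternatives were a pseudocount of 5, no filter beyond a mean above 0, a replicate block, samples rescaled to equal totals, only the 2 groups compared, edgeR (4.0.16, TMM) and DESeq2 (1.42.0) on the recovered reads, and leaving out each sample. The averaged effects were chosen after seeing the data.

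The 10 members and all gene lists were chosen with earlier results of these data known, and 2 genes of the wider lists are not reported here and enter no count. Of the rest, genes called in a comparison are named with values, and the others were chosen for naming after their values were seen. Genes with the most similar pattern were to be named for members called in a comparison, and none was.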

Additional observations from a re-analysis of the deposited data

How the results depend on the processing

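Of 68 differences followed under 7 alternatives, edgeR left 67, a pseudocount of 5 left 67, no filter 64, DESeq2 63, the replicate block 59 and equal totals 58 with the same direction and on the same side of the threshold. The replicate block called 3 members in LPS against Ctrl (Per1, Clock and Cry1, limma adjusted p = 0.0010, 0.030 and 0.047), 2 in LPSEff against Eff (Per1 and Clock, 0.0053 and 0.045), 1 in LPSEff against LPS (Nr1d1, 0.014), and, for averaged effects, 2 under LPS/IFNγ (Per1 and Clock) and 1 under efferocytosis (Nr1d1, 0.0077). It raised the calls over all genes from 3910 to 6717, 3213 to 6033, 41 to 436 and 126 to 1137, in LPS against Ctrl, LPSEff against Eff, Eff against Ctrl and LPSEff against LPS. Differences between samples 1 and 2 correlated across genes between groups, with r between 0.40 and 0.59 for the 6 group pairs, but the labels tie no samples by number, so that these calls were not used.

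With equal totals 1 member, Clock, was called in LPS against Ctrl and in LPSEff against Eff, and Clock, Per3 and Cry2 (3 members) for the averaged effect. Bmal1 (−0.37), Per2 (−0.35), Nr1d1 (−0.16) and Nr1d2 (−0.061) turned sign in LPSEff against Eff, as did Dbp (−0.30) in LPS against Ctrl and Csnk1d (−0.018) for the averaged effect. Dbp also turned with edgeR (−0.064) and DESeq2 (−0.036). DESeq2 called 1 member in LPSEff against LPS (Nr1d1) and, for averaged effects, 1 under LPS/IFNγ (Per1) and 1 under efferocytosis (Nr1d1). A pseudocount of 5 and the missing filter each called 1 member, Nr1d1, for the averaged efferocytosis effect.

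With each of the 8 samples left out in turn, estimates that were not called changed sign within these ranges of the log2 difference. In LPSEff against Eff, Bmal1 −0.17 to 0.30, Per2 −0.27 to 0.46, Nr1d1 −0.14 to 0.69, Nr1d2 −0.073 to 0.84. In LPSEff against LPS, Bmal1 −0.16 to 0.31, Clock −0.34 to 0.29, Per1 −0.35 to 0.67, Per2 −0.16 to 1.26, Per3 −0.33 to 0.62, Cry2 −0.22 to 0.52. In Eff against Ctrl, Clock −0.21 to 0.089, Per1 −0.024 to 0.78, Per2 −0.19 to 0.35, Cry2 −0.093 to 0.36, Nr1d2 −0.088 to 0.82, Dbp −0.27 to 0.89. In LPS against Ctrl, Per2 −1.09 to 0.33, Cry2 −0.74 to 0.0016, Nr1d2 −0.40 to 0.03, Dbp −0.50 to 0.66. The members called ranged from 0 to 2 for the averaged LPS/IFNγ effect and from 0 to 1 for efferocytosis, and the wider genes called in LPSEff against Eff from 3 to 6. The cause of these changes was not tested. With 2 samples a group, and 5 to 63 reads behind Nr1d1, the members' intervals stayed wide: that of Nr1d1 in Eff against Ctrl ran from −0.04 to 2.18.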
